A study of Mus musculus with 2 samples.

Results

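The barcodes described here were those in which the genes with symbols starting mt- made up at least 5% of all UMIs (unique molecular identifiers, each standing for 1 captured transcript). They were chosen by this measured share alone, and 594 of the 12918 deposited barcodes met the rule, 291 of 6745 in the vehicle library and 303 of 6173 in the OLE library. The data were single-nuclei RNA sequencing (10X 3′ v3) of frozen entorhinal cortex from male APP/PS1 mice. These animals carry transgenes under a prion promoter and deposit amyloid with age, and both libraries came from this genotype, with no wild-type library. Mice of the OLE library received N-oleoyl-leucine, a fatty acid joined to an amino acid and labelled C18:1-Leu, at 25 mg/kg/day in their alkalinized drinking water, starting at 15 months of age. Mice of the vehicle library received DMSO in the same water over the same months, and tissue of both groups was taken at an age of 18 months. Each library was 1 pool of 5 mice, so each condition had 1 library, no difference between OLE and vehicle had a replicate, and no test was made.

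Mitochondria keep a small circular genome of their own, which encodes core subunits of respiratory chain complexes I, III and IV and of the ATP synthase (complex V). All other subunits of these complexes are encoded in the nucleus, translated on cytosolic ribosomes and imported. Mitochondrial transcripts lie in the cytoplasm and not in the nucleus, so in a preparation of nuclei they are commonly read as a sign of attached or free cytoplasmic RNA, and in whole cells as a sign of damage.

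The share of mt- UMIs had no gap at the threshold. In the vehicle library 59 barcodes lay between 4 and under 5% and 37 between 5 and under 6%, and in the OLE library 52 and 46 did. The lowest share among the chosen barcodes was 5.012% in the vehicle and 5.024% in the OLE library, and the highest share below the threshold was 4.967% and 4.988%. Inside the rule, the median share was 11.4% in vehicle (quartiles 7.62 and 17.3%) and 10.9% in OLE (quartiles 6.98 and 16.9%), with maxima of 45.9% and 54.9%. At least 10% was reached by 174 vehicle and 160 OLE barcodes, and at least 30% by 10 and 16. The median of the other barcodes was 0.762% and 0.729%.

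**Figure D1:**
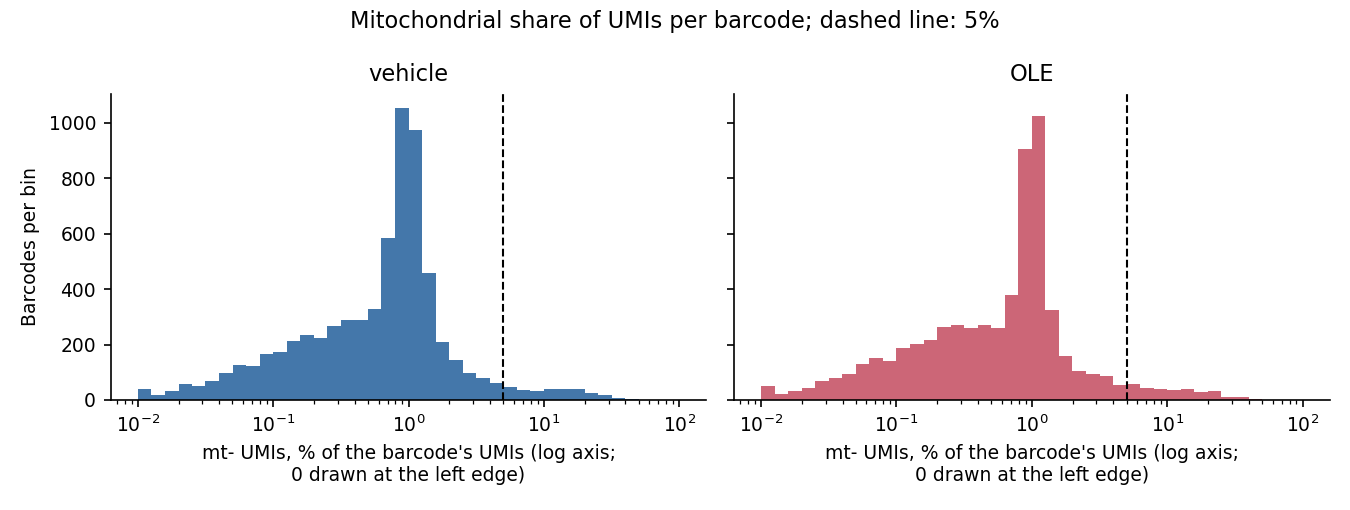
The number of barcodes (y) by the share of their UMIs from mt- genes (x, log axis) in the vehicle and OLE libraries, with the 5% rule as a dashed line. Both libraries peak near 1%, and the 291 and 303 barcodes to the right of the line form a tail with no gap at it.

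The 2 libraries held similar shares of such barcodes. They were 4.31% of barcodes in vehicle (exact Clopper-Pearson 95% interval 3.84 to 4.83%) and 4.91% in OLE (4.38 to 5.48%), and the intervals overlapped. These intervals, like all intervals given here, cover counting error only and not the variation between mice, dissections or preparations. With barcodes under 1000 UMIs left out, the shares were 4.03% and 3.97%, so the libraries were nearly equal and their order turned.

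The chosen barcodes were shallow on the whole. Their median depth was 1534 UMIs in vehicle and 1432 in OLE, against 4229 and 6818.5 in the other barcodes, and 180 of 291 and 195 of 303 had under 2000 UMIs. A few were deep. In vehicle 17 and in OLE 22 had over 10000 UMIs, up to 56041 and 64357, and these held 34.9% and 44.5% of the nuclear-encoded UMIs of all chosen barcodes of the library. Sums over the chosen barcodes are therefore set by few of them, and for the gene lists that the text turns on, medians with each barcode given the same weight are printed too. The chosen barcodes held 1.27% of all UMIs of the vehicle library but 26.5% of its mt- UMIs, and 1.52% and 26.0% in the OLE library. Genes detected per barcode had medians of 925 and 860 against 2188.5 and 3129 in the others, but after thinning each barcode to 500 nuclear-encoded UMIs the medians were 409 and 414 against 404 and 404.

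Of 14 barcode sequences found in both libraries, 1 was among the chosen in both and 2 in 1 library each. The top 5% of Scrublet doublet scores held 14 chosen barcodes in each library, 4.81% and 4.62% of them, and 5.45% and 5.3% of the others. These barcodes were kept.

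All 13 protein genes of the mitochondrial genome were counted. Their arrangement matters for reading the values, since neighbouring genes overlap on the same strand (GRCm38, GENCODE vM21), and the stretches shared by 2 genes are shown for that reason. In each, the capitals mark the start codon of the downstream gene and the stop codon of the upstream gene. The first is shared by mt-Atp8 and mt-Atp6 at chrM:7927-7969 (plus strand, 43 bases), and the second by mt-Nd4l and mt-Nd4 at chrM:10167-10173 (plus strand, 7 bases).
mt-Atp8 and mt-Atp6: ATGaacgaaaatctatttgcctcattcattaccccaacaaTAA
mt-Nd4l and mt-Nd4: ATGcTAA
The ends of mt-Nd5 and of mt-Nd6, which lies on the opposite strand, overlap by 14 bases.

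The composition of the mt- UMIs was close to that of the other barcodes, gene by gene. Complex IV genes, the catalytic core of cytochrome c oxidase, made up 46.0% of the mt- UMIs of the chosen vehicle barcodes (95% interval 45.8 to 46.3%, 56868 UMIs) and 45.5% of those of the other vehicle barcodes (45.3 to 45.7%). In OLE they made up 45.5% (45.3 to 45.8%) and 45.2% (45.1 to 45.4%). The 7 complex I genes, subunits of NADH dehydrogenase, made up 23.4% in the chosen barcodes of either library, against 24.2% in the other vehicle and 23.9% in the other OLE barcodes. Complex V, with mt-Atp6 and mt-Atp8, made up 19.8% and 20.1% against 20.7% and 21.5%. Complex III, of which mt-Cytb is the one mitochondrially encoded subunit, had 10.7% and 11% against 9.54% and 9.38%.

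Single genes differed between the chosen and the other barcodes by small factors. mt-Co1 took 13.3% of mt- UMIs in the chosen vehicle barcodes and 12.1% in the others, and 13% and 11.9% in OLE, a log2 ratio of 0.13 in both libraries. mt-Cytb was higher by 0.17 and 0.22 on the log2 scale, and mt-Nd3 by 0.15 (95% interval 0.09 to 0.2) and 0.31 (0.26 to 0.37). mt-Nd1 was the most unequal in the other direction, with 5.38% against 6.43% in vehicle and 5.46% against 6.19% in OLE, log2 ratios of -0.26 (-0.3 to -0.22) and -0.18 (-0.22 to -0.14). mt-Nd2 had -0.14 and -0.15, mt-Co3 -0.07 and -0.1, and mt-Atp6 -0.06 and -0.1. Of the 13 genes, mt-Atp8 and mt-Nd6 had intervals that held 0 in both libraries, with 176 and 175 UMIs of mt-Atp8 and 78 and 84 of mt-Nd6 in the chosen barcodes.

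The genes with shared bases had similar shares inside and outside the rule, and a read within those bases cannot be assigned to either. mt-Atp8 took 0.142% of the mt- UMIs of the chosen vehicle barcodes and mt-Atp6, with which it shares the 43 bases above, 19.7%. In OLE the shares were 0.143% and 19.9%, and in the other barcodes 0.126% and 20.6% in vehicle and 0.132% and 21.3% in OLE. mt-Nd4l took 0.334% and 0.301% in the chosen barcodes and mt-Nd4 7.52% and 7.45%. These are shares of UMIs from a 3′ kit, not per length, and do not rank the genes by level.

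**Figure D2:**
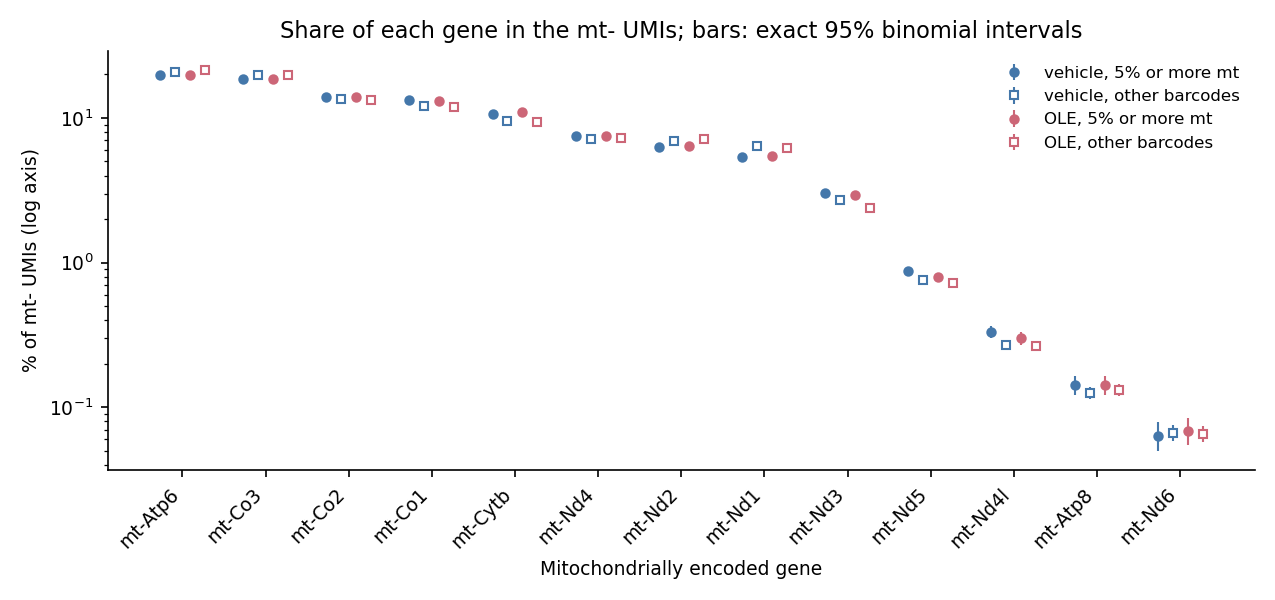
Share of each of the 13 mitochondrially encoded genes in all mt- UMIs (y, log axis) for barcodes with at least 5% mt- UMIs (filled circles) and other barcodes (open squares), with exact 95% binomial intervals. The 4 points of a gene lie close together while genes range from about 0.0631% for mt-Nd6 to 21.3% for mt-Atp6.

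Between OLE and vehicle the mt- UMIs of the chosen barcodes had much the same make-up. The log2 ratio of a gene's share lay between -0.15 (mt-Nd4l, 95% interval -0.35 to 0.06) and 0.12 (mt-Nd6, -0.34 to 0.58). The best counted genes, mt-Atp6 with 24334 and 24403 UMIs and mt-Co3 with 23143 and 22746, had 0.02 (-0.01 to 0.04) and -0.01 (-0.04 to 0.01).

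The chosen barcodes were not 1 cell type. Clustering of all 12918 barcodes on nuclear-encoded genes alone gave 22 clusters, and the chosen barcodes fell mainly in 5 of them. Cluster 3 held 339 of the 594 (57.1%, exact 95% interval 53 to 61.1%), which was 47.9% of that cluster's 708 barcodes. Its leading genes by fold were Ttr, Flt1, Cldn5, Slco1a4 and Rgs5, of choroid plexus, endothelium and pericytes, and it also ranked Ftl1 and Rps29 among its top 10. Its barcodes had a median of 1222 UMIs, and 6 of 13 microglia markers were raised in it, but none of these stood among its top 10 genes and its barcodes were far shallower than their libraries, so it stayed unnamed. Cluster 0, also unnamed and the largest with 4600 barcodes, held 88 (14.8%). Of the named clusters, the oligodendrocyte-like cluster 1 held 67 (11.3%), the vascular leptomeningeal-like cluster 18 held 48 (8.08%) and the microglia-like cluster 4 held 27 (4.55%). The astrocyte-like cluster 10 held 9, and the other clusters 16 together.

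These numbers read differently against the size of each cluster. Of the 185 barcodes of the leptomeningeal-like cluster 25.9% passed the rule, of the 1230 oligodendrocyte-like 5.45%, of the 663 microglia-like 4.07% and of the 337 astrocyte-like 2.67%. Among the large neuronal clusters hardly any did. The 2 glutamatergic-like clusters held none in 885 and 275 barcodes, which allows a share of up to 0.339% and 1.09% by the floor of 3 counts, and the 2 GABAergic-like clusters held 4 of 501 and 0 of 261. The counts per library were 154 vehicle and 185 OLE in cluster 3, 56 and 32 in cluster 0, 36 and 31 in the oligodendrocyte-like, 22 and 26 in the leptomeningeal-like and 11 and 16 in the microglia-like cluster. Cluster 0 took 19.2% of the chosen vehicle barcodes (95% interval 14.9 to 24.3%) and 10.6% of the chosen OLE barcodes (7.34 to 14.6%). For cluster 3 these were 52.9% (47.0 to 58.8%) and 61.1% (55.3 to 66.6%).

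Depth and mt- share set some of these sets apart, but not clusters 0 and 3, which were both shallow with similar mt- shares. The chosen barcodes of cluster 0 had median mt- shares of 13% in vehicle and 14.9% in OLE. Those of the microglia-like cluster had 7.07% and 6.93%, near the oligodendrocyte-like values given below, at median depths of 2346 and 2015 UMIs. In cluster 0 the chosen barcodes had a median of 1095 UMIs in vehicle and 968.5 in OLE, while the others of that cluster had 2364 and 4772, and none of the chosen exceeded 3958 UMIs. In cluster 3 the chosen barcodes had medians of 1408 and 1186 UMIs against 1180 and 1169 in the rest of the cluster, and their mt- share had medians of 13.5% and 12.8%. In the oligodendrocyte-like cluster they had 3084.5 and 3268 UMIs, near the 3517 and 3107 of the others, and medians of 7.52% and 6.72% mt-. The leptomeningeal-like barcodes had medians of 8073 and 8068 UMIs, and the 12 and 13 chosen barcodes in all remaining clusters 6598.5 and 9900. The leptomeningeal-like ones had mt- shares of 9.48% and 8.3%, and they held 25.9% and 30.4% of the nuclear-encoded UMIs of all chosen barcodes.

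**Figure D3:**
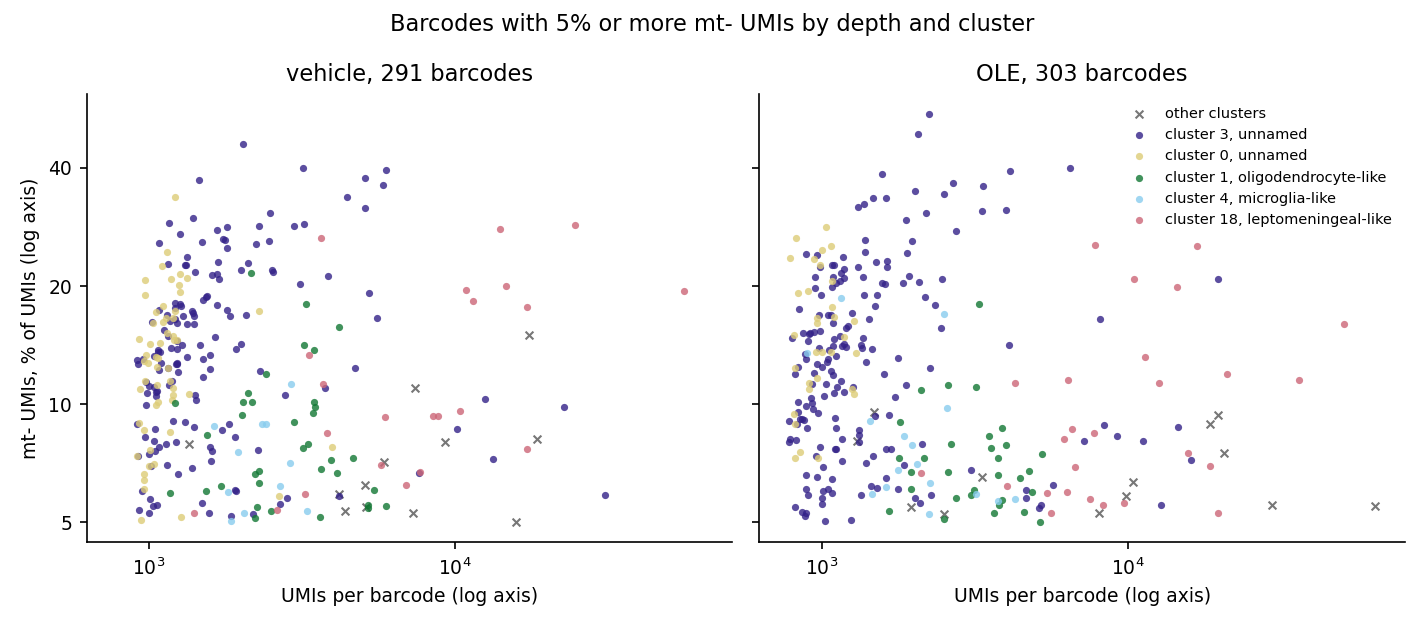
Each point is 1 of the 291 vehicle or 303 OLE barcodes with at least 5% mt- UMIs, by its total UMIs (x) and its mt- share (y), both on log axes, coloured by the cluster it fell in. Cluster 3 and cluster 0 fill the shallow side near 1000 UMIs, the highest mt- shares, 45.9% and 54.9%, are in cluster 3, and the leptomeningeal-like points reach 56041 and 50738 UMIs.

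Markers of many cell types were found among the chosen barcodes, with each list counted on its own. Whether single barcodes held markers of several types was not counted. With each barcode thinned to 500 nuclear-encoded UMIs, at least 2 UMIs of the 10 astrocyte markers were found in 106 of 291 vehicle barcodes (36.4%) and 117 of 303 OLE barcodes (38.6%). The share was 15.9% and 16% in the other barcodes, and 6.06% and 6.36% in glutamatergic-like barcodes below the threshold. The clusters of the latter had median depths of 20367 and 19455 UMIs before thinning. Not every marker was confined to the astrocyte-like cluster, since Gpc5 was also raised in the unnamed cluster 20. For the 10 oligodendrocyte markers, including the myelin gene Mbp, the shares were 33.7% and 28.1% in the chosen, 19.4% and 16.9% in the others and 0.865% and 0.344% in the glutamatergic-like barcodes. For the 13 microglia markers they were 13.7% and 12.5%, 7.2% and 6.35%, and none of 578 and none of 582. GABAergic markers were found in 28.2% and 25.4% of the chosen, close to the 26.7% in the others of both libraries. Unthinned, the summed astrocyte markers stood at 3431 and 4005 UMIs per 1000000 nuclear-encoded UMIs in the chosen and 1250 and 1421 in the others, and the GABAergic markers at 1444 and 1866 against 2931 and 2842.

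Within cluster 3 markers of several types were found on both sides of the rule, with astrocyte markers in more of the chosen barcodes. At least 2 astrocyte marker UMIs were found in 47.4% and 47.6% of its chosen barcodes and in 29.2% and 34.7% of its others, and at least 2 oligodendrocyte marker UMIs in 25.3% and 25.4% against 24.3% and 22.2%. Microglia markers were found in 16.9% and 12.4% against 20.1% and 16.4%. Glutamatergic markers were found in 28.6% and 29.2% against 26.4% and 31.6%. The part of free RNA in the droplets in these shares was not tested.

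Vascular markers were concentrated in a handful of barcodes. The 6 endothelial markers (Cldn5 of tight junctions and the VEGF receptor Flt1 among them) had 1512 UMIs in the chosen vehicle barcodes, of which 1 barcode of 30943 UMIs in cluster 3 held 835, or 55.2%. In OLE 1 barcode of 14555 UMIs held 466 of 1797, or 25.9%. The 3 barcodes with most of them held 81.9% and 53.8%. Cldn5 itself was found in only 5 vehicle and 11 OLE barcodes of the chosen. The 6 mural markers were alike, with 81.8% and 51.4% of their UMIs in 3 barcodes. At least 1 endothelial marker UMI was found in 116 and 142 of the chosen barcodes, and Bsg, a gene of that list, by itself in 96 and 127. Bsg held 796 of the 1512 vehicle and 980 of the 1797 OLE UMIs. Itm2a was found in 32 and 38 of the chosen barcodes, Flt1 in 14 and 18, Pecam1 in 8 and 9 and Ly6c1 in 5 and 8. Leptomeningeal markers were found in 74 and 79 of them, and less of their UMIs lay in the top 3, 28.0% and 30.8%. Choroid plexus and ependymal markers were near 0, at 7 and 28 UMIs, and T cell and granulocyte markers at 2 and 2.

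Nuclear-encoded genes were then compared between the chosen and the other barcodes of the same library, as UMIs per 1000000 nuclear-encoded UMIs (CPM), so that the mt- share itself does not enter. This is still the contrast the rule made, so its values describe the barcodes and were not tested. Of 6366 genes with at least 100 UMIs by the filter, 1271 (20.0%) were at least 2-fold higher in the chosen barcodes in both libraries and 322 (5.06%) at least 2-fold lower. The median log2 ratio over these genes was 0.21 in vehicle and 0.18 in OLE. The counts depended on the reference. Weighting barcodes equally, 634 genes (9.96%) were higher and 44 (0.691%) lower, with medians of -0.01 and 0.01, and among barcodes of up to 10000 UMIs 307 and 21 were, of 4546 genes.

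Cytosolic ribosomal protein genes had higher levels in the chosen barcodes. All 61 that passed the filter, of 82 listed, were at least 2-fold higher in both libraries, with median log2 ratios of 4.07 in vehicle and 3.28 in OLE and, weighted equally, 3.18 and 2.55. The filter favours genes that are high in the chosen barcodes, so the 61 do not stand for the 82. Rplp1, a stalk protein of the large subunit, had 692 CPM in the chosen vehicle barcodes against 24.6 in the others, and 618 against 41.2 in OLE. Rpl41 had 623 against 39.0 and 569 against 54.4, and Rps29 624 against 22.9 and 519 against 33.8. Per barcode, ribosomal protein genes took a median of 0.85% and 0.928% of nuclear-encoded UMIs, against 0.146% and 0.197% in the others.

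The nuclear-encoded partners of the mitochondrial genes were also higher. Of 57 respiratory chain genes measured, of 78 listed, 44 were at least 2-fold higher and none lower in both libraries, with a median log2 ratio of 1.87 in either library and, weighted equally, 1.39 and 1.36. Complex IV had the largest median, 2.61 and 2.16 over 10 genes, 9 of which passed 2-fold, followed by complex III with 2.16 and 2.01 over 8 genes, complex I with 1.79 and 1.88 over 21 and complex V with 1.61 and 1.57 over 15. Weighted equally, the 4 medians were 2.22 and 1.71, 1.68 and 1.64, 1.39 and 1.36, and 1.29 and 1.2. Complex II, whose subunits are all nuclear-encoded, had 0.53 and 0.7 over 3 genes, 1 of which passed. Cox8a, a subunit of cytochrome c oxidase, had 474 CPM against 51.8 in vehicle and 504 against 69.1 in OLE. Cox6c had 233 against 35.0 and 285 against 48.8, Atp5b, the catalytic subunit of ATP synthase, 243 against 66.3 and 274 against 92.2, and Uqcrh of complex III 150 against 29.8 and 162 against 36.4. Of complex I, Ndufa4 as listed here had 126 against 23.9 in vehicle and 208 against 43.5 in OLE, and Ndufs4 did not follow, at 122 against 105 and 111 against 106.

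Genes that keep and express the mitochondrial genome did not share this. None of the 8 measured of 28 listed passed 2-fold in either direction, with medians of -0.18 and -0.16. Nrf1, a transcription factor of respiratory genes, had 131 against 115 CPM in vehicle and 130 against 111 in OLE. Ppargc1a, the coactivator of mitochondrial biogenesis, had 87.4 against 108 and 86.7 against 99.7. Lrpprc, which stabilizes mitochondrial mRNAs, had 62.9 against 91.4 and 73.9 against 90.9. Of the mitochondrial ribosome, 12 of 77 genes were measured and 2 passed 2-fold, with medians of 0.44 and 0.33. Of the import machinery, 13 of 23 were measured and 6 passed, with medians of 0.78 and 0.65, and the import motor Hspa9 had 88.6 against 42 and 115 against 49.1.

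Mitophagy and dynamics genes stayed near the values of all genes. Of 10 measured, 3 were 2-fold higher and none lower, beside 20.0% higher among all genes, with medians of 0.3 and 0.3. Weighted equally, 1 of the 10 was higher, beside 9.96% of all genes. Park2, the ubiquitin ligase Parkin, a gene of great length, had 560 against 785 CPM in vehicle and 460 against 712 in OLE. Dnm1l, the fission GTPase, had 77.1 against 101 in vehicle and 120 against 104 in OLE. Bnip3l, a mitophagy receptor, had 98.9 against 31.2 and 88.9 against 33.8, and Opa1, of inner membrane fusion, 92.5 against 87.2 and 87.8 against 85.7.

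The ferritins given as markers of these barcodes were found at high levels. Fth1, the ferritin heavy chain, had 2005 CPM against 91.0 in vehicle and 1678 against 150 in OLE, and was found in 70.4% and 73.9% of the chosen barcodes. It was also found in 52.8% and 71.2% of the deeper other barcodes. Ftl1, the light chain, had 532 against 20.6 and 353 against 29.3. The other iron genes did not follow to that degree, since Pcbp2, an iron chaperone, had 181 against 98.3 and 149 against 108, and Ireb2, an iron sensor, 65.5 against 72.5 and 68.5 against 70.4. The whole iron list of 7 measured genes had medians of 2.47 and 2.06, and 0.84 and 0.71 weighted equally. Among antioxidant genes, 12 of 13 measured were at least 2-fold higher, with medians of 2.43 and 2.01, and 1.97 and 1.57 weighted equally. Mt1, a metallothionein, had 265 against 13 and 248 against 21.0, and the peroxidases Gpx4 157 against 24.2 and 194 against 30.1 and Prdx1 146 against 21.2 and 182 against 25.2.

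Other short, abundant mRNAs of the cytoplasm were higher too. Of 38 measured in that list, 22 were at least 2-fold higher and none lower, with medians of 1.53 and 1.37, and 1.04 and 1.14 weighted equally. Tmsb4x, an actin-binding peptide, had 1398 against 100 CPM in vehicle and 1027 against 173 in OLE, and the elongation factor Eef1a1 1118 against 75.8 and 978 against 113. Glycolysis genes had 9 of 15 higher (medians 1.42 and 1.24), the endoplasmic reticulum folding genes 9 of 13 (1.45 and 1.76) and cytosolic chaperones 11 of 22 (1.1 and 1.06). Weighted equally, these medians were 1.03 and 0.93, 0.9 and 1.13, and 0.57 and 0.68. All 16 measured amyloid-related glial genes were higher, with medians of 2.98 and 2.52, and 1.5 and 1.36 weighted equally. Apoe, the lipoprotein of astrocytes and microglia, had 2287 against 173 and 3234 against 313, and Cst3 1727 against 136 and 1741 against 211. Other lists had shares of 2-fold higher genes near the 20.0% of all genes: proteasome subunits 7 of 26 (0.67 and 0.62), dendritic and synaptic mRNAs 5 of 31 with 2 lower (-0.02 and 0.13), cell death genes 2 of 8 (0.93 and 1.08) and immediate early genes 1 of 5 (0.64 and 0.23). App, the precursor of amyloid, differed less, at 936 against 640 and 1101 against 717. The reference of the files holds the mouse gene, and what the transgene added to its count was not tested.

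Long synaptic genes stood on the other side. Of 40 measured, 23 were at least 2-fold lower in both libraries and none higher, with medians of -1.12 and -1.19, but weighted equally none of 40 passed 2-fold, with medians of -0.41 and -0.61. Pcdh9, a protocadherin and the best counted of them, stood at a CPM of 4954 against 7482 in vehicle and 4251 against 6571 in OLE, short of 2-fold. Ptprd, a synaptic receptor phosphatase, had 5056 against 9887 CPM in vehicle and 3511 against 8881 in OLE, and the potassium channel partner Kcnip4 3800 against 9482 and 3156 against 9055. Over all annotated genes, those spanning at least 100 kb gave a median of 50.2% of a barcode's nuclear-encoded UMIs in vehicle (quartiles 45 and 53.1%) and 45.1% in OLE (40.6 and 48.0%). In the other barcodes the medians were 54.5% (52.8 to 63.1%) and 52.7% (51.2 to 61.4%). Genes under 5 kb gave 6.15% and 7.24% against 2.57% and 2.76%.

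Of 8 nuclear-retained RNAs measured, 4 were at least 2-fold lower and 1 higher, with medians of -0.84 and -0.97. Weighted equally, the medians were -0.97 and -0.96. Malat1, which stays in the nucleus, was not lower in the sums. It stood at 24561 CPM against 22966 in vehicle and 32077 against 26232 in OLE, and at a median of 1.7% and 2.22% of a barcode's nuclear-encoded UMIs against 1.74% and 2.08%. It was found in all 291 and all 303 barcodes. The neuronal nuclear RNAs were lower, Meg3 with 3724 against 9939 and 3209 against 9814 and Snhg11 with 1874 against 4509 and 1935 against 4972, and Neat1 was higher in the sums, with 604 against 122 and 588 against 111, but its equal-weight log2 ratios were 0.2 and 0.37. Neat1 was found in 95 and 89 barcodes.

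**Figure D4:**
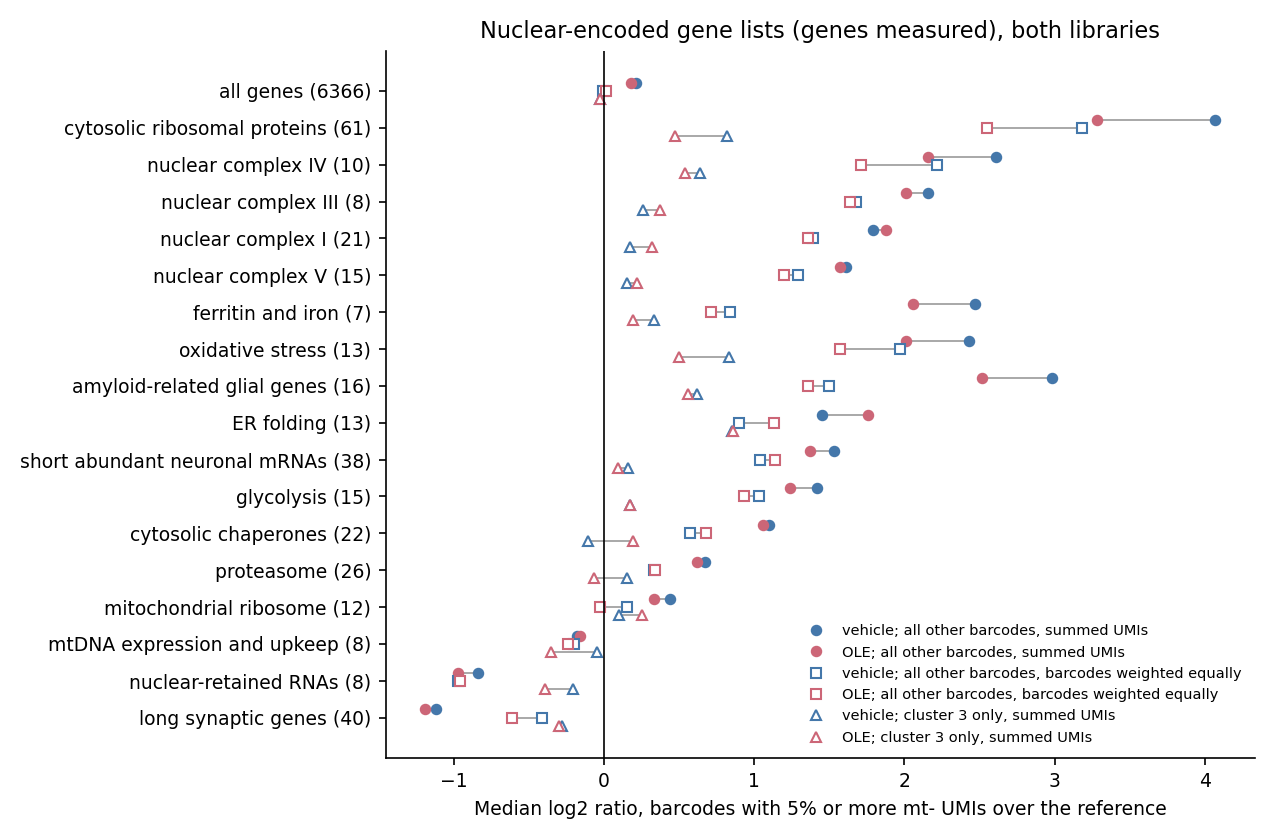
Median log2 ratio of each gene list between barcodes with at least 5% mt- UMIs and a reference (x), for the vehicle and OLE libraries. Circles use all other barcodes and summed UMIs, squares weight barcodes equally, and triangles compare within cluster 3; the number of genes measured against all other barcodes stands in brackets, and fewer were measured within cluster 3. Ribosomal proteins lie at 4.07 and 3.28 as circles and at 0.82 and 0.47 as triangles, and the long synaptic genes are negative under all 3 references.

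The 12 highest ratios among genes with at least 200 UMIs by the filter had log2 values, as means of both libraries, from 5.85 (Anxa2) to 6.62 (1500015O10Rik). Mgp, the matrix Gla protein, had 934 of its UMIs in chosen and 914 in other vehicle barcodes, and 1928 and 1339 in OLE, a mean log2 ratio of 6.61 ± 0.14 (SD, n = 2 libraries). Bgn, the matrix proteoglycan biglycan, had 6.08 ± 0.09, and Cavin1, a coat protein of caveolae, 6.34 ± 0.25. Prg4, Cdh1, Ahnak and the transporter Abcb1a had 5.88 ± 0.09, 5.86 ± 0.59, 5.88 ± 0.34 and 5.88 ± 0.08. Cd74, the invariant chain of antigen presentation, had 6.02 ± 0.51 and was found in 35 and 43 barcodes. Cldn5 and Adgrl4, both endothelial, had 6.17 ± 0.67 and 6.02 ± 0.66, but were found in few of the chosen barcodes. Cldn5 was found in 5 and 11, with 119 of its 196 vehicle and 70 of its 215 OLE UMIs in 1 barcode each. Adgrl4 was found in 4 and 8, with 69 of its 109 vehicle and 34 of its 129 OLE UMIs in 1 barcode each. Each ratio was smaller when barcodes were weighted equally, for example 4.15 and 4.71 for Mgp and 2.62 and 2.86 for Adgrl4.

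The 8 lowest included channels and receptors of neurons. Adarb2, of an interneuron class, was the lowest, with 135 CPM against 666 in vehicle and 111 against 673 in OLE, a mean log2 ratio of -2.45 ± 0.21. Nrg3os had -2.10 ± 0.25, the potassium channel Kcnj6 -2.06 ± 0.15, the muscarinic receptor Chrm2 -1.91 ± 0.55, the potassium channel Kcnh5 -1.90 ± 0.17, the serotonin receptor Htr1f -1.89 ± 0.04, 6530403H02Rik -1.87 ± 0.45 and Fstl4 -1.86 ± 0.13. Weighted equally, these ranged from -0.38 (6530403H02Rik in vehicle) to -1.51 (Kcnh5 in OLE).

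Set against other barcodes of the same cluster, most of these differences were smaller. The clusters were formed on nuclear-encoded genes, so the clustering itself grouped barcodes alike in these genes, and the smaller values cannot be read apart from that. The other barcodes of cluster 3 had a median ribosomal share of 1.47% in vehicle and 1.59% in OLE. Their median mt- share was 1.61% in either library. In cluster 3, with 2801 genes measured, 37 were at least 2-fold higher in the chosen barcodes in both libraries and 2 lower. None of 60 ribosomal protein genes and none of 47 respiratory chain genes passed 2-fold, with medians of 0.82 and 0.47 and of 0.26 and 0.38. Fth1 had log2 ratios of 1.06 in vehicle and 0.78 in OLE, Rplp1 0.92 and 0.6, and Ftl1 0.33 and -0.1, so Ftl1 had no common direction there. Malat1 had -0.12 and -0.08. In the oligodendrocyte-like cluster 1 of 622 genes was 2-fold higher, Fth1, at 1.91 and 1.36. In the microglia-like cluster none of 86 were. In cluster 0, with 202 genes measured, 4 were higher and 1 lower, and Malat1 was higher by 0.33 and 0.27. In this, the oligodendrocyte-like and the microglia-like cluster no ribosomal protein or respiratory chain gene passed the filter, so neither list was compared. Per barcode, the ribosomal share had medians in cluster 0 of 0.466% chosen and 0.216% other in vehicle, and 0.551% and 0.277% in OLE. The oligodendrocyte-like cluster had 0.242% and 0.171%, and 0.36% and 0.227%, and the microglia-like 0.421% and 0.298%, and 0.679% and 0.397%.

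Of the clusters described, the leptomeningeal-like one had the most genes past 2-fold. Of 2219 genes measured, 199 were at least 2-fold higher in its 48 chosen barcodes than in its 137 others in both libraries and 94 lower. All 35 ribosomal protein genes measured, of 82 listed, were higher, with medians of 2.76 and 2.85. Of 7 endoplasmic reticulum folding genes measured, of 22 listed, 6 were higher, with 1.89 and 2.37. The filter favours genes that are high in the chosen barcodes, so these genes do not stand for the whole lists. These sums weigh the deep barcodes most. Per barcode, ribosomal protein genes took a median of 0.56% in its chosen vehicle barcodes and 0.176% in its others, and 0.502% and 0.23% in OLE. The summed shares were 0.926% and 0.178% in vehicle, and 1.52% and 0.227% in OLE. Rplp1 stood at 747 CPM in its chosen OLE barcodes and 49.4 in the others, with log2 ratios of 3.37 and 3.92, Ftl1 at 2.47 and 2.63 and Fth1 at 1.73 and 2.35. Of long synaptic genes 14 of 38 were lower, with medians of -0.85 and -1.44. Genes spanning at least 100 kb gave 41% and 36.0% of the summed nuclear-encoded UMIs in its chosen barcodes and 49.1% and 46.8% in its others. Malat1 was at 3.49% and 5.08% against 4.84% and 5.33%. The chosen barcodes were also deeper here, with medians of 8073 and 8068 UMIs against 5903 and 5318.5, the part of which was not tested.

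Bins of the mt- share describe some of these shares without the threshold. In vehicle, the median share of ribosomal protein genes was 0.199% in 1644 barcodes of 1 to under 2% mt-, 0.259% in 379 of 2 to under 5%, 0.573% in 117 of 5 to under 10%, 0.941% in 122 of 10 to under 20% and 1.86% in 52 of at least 20%. In OLE it was 0.269%, 0.353%, 0.664%, 1.18% and 2.38%. Genes spanning at least 100 kb went from 53.4% to 45.2% over the same vehicle bins and from 51.7% to 41.8% in OLE. From 5 to under 10% to 10 to under 20% they did not fall, with 50.8% and 50.8%, and 45.1% and 45.8%. Long synaptic genes had medians of 11.8%, 8.49%, 8.67%, 10.8% and 8.43% over these bins in vehicle. In OLE they had 11.3%, 7.33%, 7.46%, 9.11% and 7.71%. These bins leave out the barcodes under 1% mt-, where both shares already fell with rising mt- share in both libraries. Vehicle barcodes under 0.25% mt- had a median depth of 20157.5 UMIs. In them, long synaptic genes had a median of 14.8% and genes spanning at least 100 kb one of 64.1%. Much of the fall in both shares therefore lay below the threshold. From the bin of 1 to under 2% to that of at least 20%, the share of barcodes in cluster 3 went from 2.68% to 75% in vehicle. In OLE it went from 4.69% to 81.0%. The part of the cluster in these values cannot be told apart from that of the mt- share.

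OLE and vehicle were compared within the chosen barcodes as a description of 1 library each. Of 4107 nuclear-encoded genes with at least 100 UMIs in the chosen barcodes, 215 (5.23%) were at least 1.5-fold higher in OLE and 120 (2.92%) at least 1.5-fold lower, and the median log2 ratio was -0.01. Of the endoplasmic reticulum folding genes 7 of 9 were higher, with a median of 0.74. Hspa5, the chaperone BiP, had 224 UMIs in vehicle and 474 in OLE, a log2 ratio of 0.82 (95% interval 0.59 to 1.05), Calr had 0.74 (0.51 to 0.97) and Hsp90b1 0.67 (0.45 to 0.9). The same ratios were 0.70, 0.67 and 0.52 in the other barcodes. Without the barcode with most UMIs of the gene in each library, Hspa5 had 0.39, and the median of the same 9 genes was 0.35 when barcodes were weighted equally and 0.35 when those over 10000 UMIs were left out.

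Ribosomal protein genes and ferritin had OLE over vehicle ratios of opposite sign in the chosen and the other barcodes. In the chosen barcodes the median log2 ratio of OLE over vehicle of 60 ribosomal protein genes was -0.18, with none 1.5-fold higher and 1 lower, while in the other barcodes the same genes had 0.58. Fth1 had -0.26 (-0.36 to -0.16) against 0.72, Ftl1 -0.59 (-0.8 to -0.38) against 0.51 and Rplp1 -0.16 (-0.34 to 0.01) against 0.74. With the threshold at 10% the ribosomal median was 0.25, so its sign depends on the threshold. The difference between the chosen and the other barcodes was not tested. Nuclear respiratory chain genes had 10 of 49 higher and none lower, with a median of 0.25. Their sums of 4037 UMIs in vehicle and 5717 in OLE gave 0.24 (0.18 to 0.3), and the median of the same genes in the other barcodes was 0.38.

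Single barcodes set several of the largest differences. Hbb-bs, a hemoglobin chain of red blood cells, had 17 UMIs in vehicle and 573 in OLE, a log2 ratio of 4.81 (4.12 to 5.6), but 1 OLE barcode of 7191 UMIs in cluster 3 held 469 of the 573. Without the top barcode in each library it had 15 and 104 UMIs and 2.53 (1.74 to 3.42), and in the other barcodes -0.33. The somatostatin gene Sst had 61 and 308 UMIs, of which 1 OLE barcode of 29520 UMIs in a GABAergic-like cluster held 212, and without the top barcodes it had 0.62 (0.12 to 1.14), against 1.04 in the other barcodes. That barcode also held 63 of the 160 UMIs of the glutamate receptor subunit Grin3a and 41 of the 187 of Synpr, a synaptic vesicle protein. Ranbp3l, at -1.16 (-1.48 to -0.85), owed 172 of its 248 vehicle UMIs to 1 leptomeningeal-like barcode and had -0.15 (-0.62 to 0.32) without the top barcodes.

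The other genes chosen for their ratios follow, with values without the top barcodes. Id3, an inhibitor of helix-loop-helix factors, had 77 and 193 UMIs in 33 and 43 barcodes, a log2 ratio of 1.06 (0.67 to 1.46) and 1.01 (0.58 to 1.46) without the top barcodes, near the 1.00 of the other barcodes. The water channel Aqp4 had 70 and 173 UMIs, 1.04 (0.63 to 1.46) and 0.80 (0.32 to 1.3) without the top barcodes, against 0.86 in the others. Manf, a secreted stress protein, had 59 and 143 UMIs, 58 of the OLE UMIs in 1 barcode, and its ratio was 1.01 (0.57 to 1.48), 0.53 (0.01 to 1.07) without the top barcodes and 0.25 with equal weights, against 0.32 in the others. 1500015O10Rik had 1.06 (0.67 to 1.45) and 1.10 (0.67 to 1.55), against 0.13. Gfap, the filament of reactive astrocytes, had 311 UMIs in vehicle and 174 in OLE, -1.10 (-1.38 to -0.83), with -0.93 (-1.24 to -0.63) without the top barcodes and 0.53 in the other barcodes. C1qb, a complement chain, had 142 and 86 UMIs, -0.99 (-1.39 to -0.59), with 52 of the vehicle UMIs in 1 barcode, and -0.51 (-0.97 to -0.05) without the top barcodes, against 0.31 in the others. Ntng1 had -1.21 (-1.53 to -0.89), Sgcz -0.90 (-1.05 to -0.74), Tox -0.89 (-1.24 to -0.55) and 9330111N05Rik -1.24 (-1.64 to -0.84), and without the top barcodes -1.14, -0.69, -0.99 and -1.14. The transporter Slc6a20a had 122 of its 272 vehicle UMIs and 60 of its 162 OLE UMIs in 1 barcode each, with -1.01 (-1.3 to -0.72), -0.82 (-1.2 to -0.45) without them and -0.14 with equal weights. In the other barcodes these 5 genes lay between -0.28 and -0.03.

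**Figure D5:**
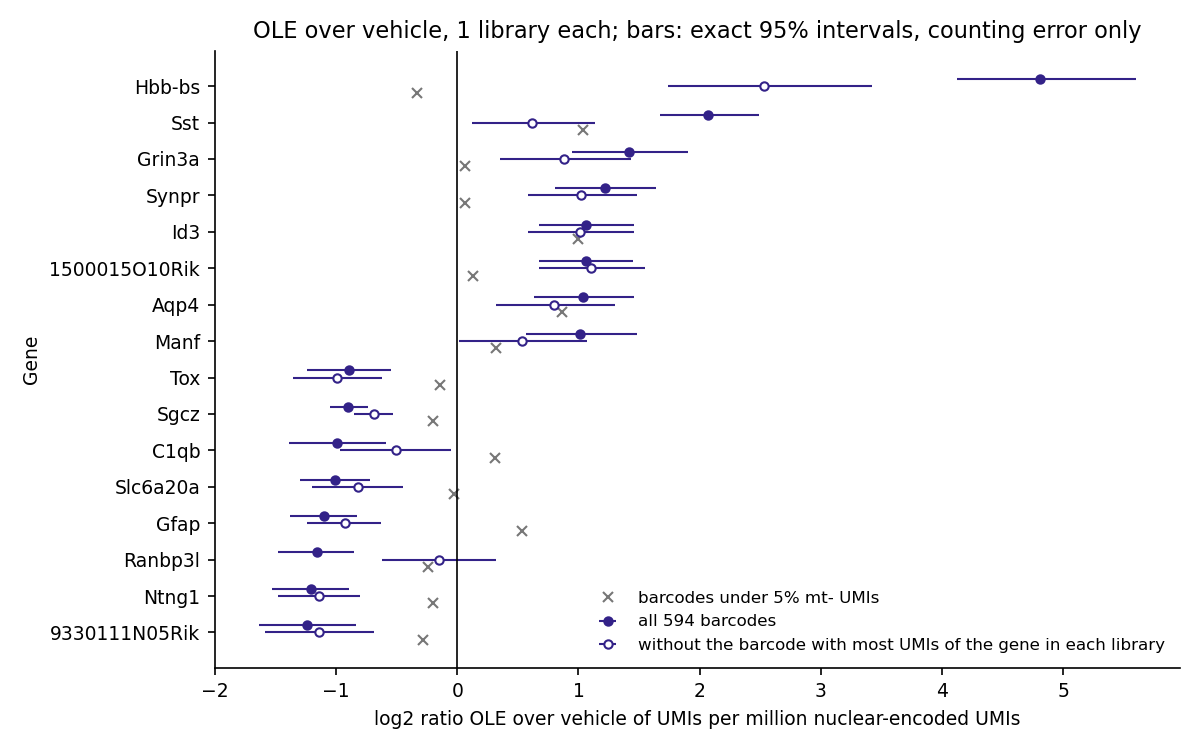
log2 ratio of OLE over vehicle (x) for the 8 highest and 8 lowest genes in barcodes with at least 5% mt- UMIs, with exact 95% intervals for all 594 barcodes (filled) and without the barcode with most UMIs of that gene in each library (open), and the ratio in the other barcodes (crosses). Hbb-bs moves from 4.81 to 2.53, Sst from 2.07 to 0.62 and Ranbp3l from -1.16 to -0.15 when the top barcodes are left out.

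The markers of cell types within the chosen barcodes differed between the libraries as well, beside the values above. Summed microglia markers had 854 and 729 UMIs over the 8 genes measured, a log2 ratio of -0.49 (-0.64 to -0.35), and astrocyte markers 2632 and 3681 over 9 genes, 0.22 (0.15 to 0.29). Without barcodes over 10000 UMIs, which held 29.2% of the vehicle and 54.3% of the OLE UMIs of all astrocyte markers, the direction turned: the summed level was 3730 CPM in vehicle and 3297 in OLE, and the median over genes was -0.2 in place of 0.37. The median of the microglia markers was -0.31 in place of -0.52. It was -0.19 with equal weights, -1.06 in the chosen barcodes of cluster 3 and 0.29 in the other barcodes. Of the 1030 vehicle UMIs of all microglia markers, 185 lay in 1 barcode of 2835 UMIs. Endothelial markers had 1477 and 1764, -0.01 (-0.11 to 0.09), but the median of their genes was 3.37 when barcodes over 10000 UMIs were left out, and these held 90.1% of the vehicle and 58.0% of the OLE UMIs of the list. Which cells the chosen barcodes held in each library, and what each cell expressed, cannot be told apart in these sums.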

How the data were processed

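For each library the authors deposited a matrix of raw counts (whole-number UMIs per gene and barcode, without normalization) for 31053 genes. Per the labels and the study's methods, nuclei from 5 pooled mice were sequenced and aligned to the mm10 pre-mRNA reference with Cell Ranger (3.0.1 in the methods, 3.0.2 in the matrix header), and Seurat 4.0.4 was used for quality control and doublet removal. No filter on the mt- share is stated, and the number of barcodes equals that of the nuclei the study states. No per-sample column of another series is in the files.

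Here UMIs were summed over chosen and other barcodes in each library and divided by nuclear-encoded UMIs (CPM). Intervals on shares are Clopper-Pearson and on ratios exact conditional binomial, at 95%. A count of 0 entered ratios as 3 counts. Ratios against other barcodes used genes with at least 100 UMIs (chosen plus the count expected from the others), and ratios of OLE over vehicle genes with at least 100 in the chosen barcodes. The ratio intervals were tested on simulated counts. Clusters came from SCTransform (Seurat 5.3.0, sctransform 0.4.2, R 4.3.3) without mt- genes, with 3000 variable genes, 30 components, 20 neighbours and Louvain resolution 0.4. A cluster was named where at least 3 markers of a type were 4-fold over the rest (2-fold for glutamatergic) in at least 10% of its barcodes and its 10 leading genes did not favour another type. A cluster whose median depth was over 3-fold below its libraries', with none of its markers among those 10 genes, stayed unnamed. Scrublet (scanpy 1.11.5) scored doublets at an expected 5%. Its automatic threshold called 7 vehicle and 8 OLE barcodes, none of them chosen. These calls were not used, and no barcode was removed. Gene positions came from GENCODE vM21.

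Genes named were the 13 mitochondrial genes, the 2 to 4 list members with most UMIs in the chosen barcodes, the 12 highest and 8 lowest mean ratios (at least 200 UMIs, same sign in both libraries), the 8 highest and 8 lowest ratios of OLE over vehicle (at least 200 UMIs) and the given markers. Other genes were named after their values were seen. The barcodes, lists and rules were chosen with earlier results of these data known. Alternatives were a threshold of 10%, thinning to 1000 UMIs, leaving out the top 5% of Scrublet scores or barcodes under 1000 UMIs, CPM of all UMIs, a filter of 20 UMIs, equal weights, a reference of like depth and 2 other clusterings. After the data were seen, leaving out barcodes over 10000 UMIs or found in both libraries, and references within clusters, were added.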

Additional observations from a re-analysis of the deposited data

How the results depend on the processing

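No paired analysis was possible because each condition had 1 library. With the threshold at 10%, the chosen barcodes were 2.58% of vehicle and 2.59% of OLE barcodes. Thinning to 1000 UMIs gave 4.06% in OLE, and leaving out barcodes under 1000 UMIs 3.97%. The genes at least 2-fold higher in the chosen barcodes numbered 647 at 10%, 2784 with a filter of 20 UMIs, 666 against other barcodes of like depth, 634 with equal weights, 307 without barcodes over 10000 UMIs and 37 within cluster 3. Those 2-fold lower numbered 490 as CPM of all UMIs, 63 at like depth, 44 with equal weights, 21 without barcodes over 10000 UMIs and 2 within cluster 3. Fewer genes pass the filter at 10%, without the deep barcodes and within cluster 3. List medians below are log2 means of both libraries. The ribosomal median of 3.68 was 2.54 at like depth, 2.87 with equal weights, 2.77 without barcodes over 10000 UMIs and 0.65 within cluster 3. The respiratory chain median of 1.87 was 2.34 at 10%, 1.88 without top Scrublet scores, 1.71 as CPM of all UMIs, 1.81 with 20 UMIs, 0.98 at like depth, 1.37 with equal weights, 1.13 without barcodes over 10000 UMIs and 0.32 within cluster 3. The long synaptic median of -1.15 was -1.37 at 10%, -1.34 as CPM of all UMIs, -0.66 at like depth, -0.51 with equal weights, -0.58 without barcodes over 10000 UMIs and -0.29 within cluster 3. The leptomeningeal marker median of 4.61 was 5.86 at 10%, 4.42 as CPM of all UMIs, 2.76 at like depth, 2.72 with equal weights and 2.36 without barcodes over 10000 UMIs. None of these 4 medians changed sign. For OLE over vehicle, 1235 genes were 1.5-fold higher with 20 UMIs, 382 with equal weights and 141 without barcodes over 10000 UMIs, and 186 lower at 10%, 781 with 20 UMIs and 194 with equal weights. The ribosomal median of -0.18 was 0.25 at 10%, -0.14 as CPM of all UMIs and -0.32 without barcodes over 10000 UMIs, and the endoplasmic reticulum folding median of 0.74 was 0.99 at 10%, 0.35 with equal weights and 0.51 without barcodes over 10000 UMIs, where the filter was applied anew. The cluster with most chosen barcodes held 68.5% of them with log-normalized counts and 74.9% with mt- genes kept, instead of 57.1%. The other 44 values stayed within 1.5 times for counts of genes, within the interval for shares of barcodes and within the spread for the rest. The cause of these changes was not tested. With 1 library per condition, nothing here measures variation between mice, and most chosen barcodes had under 2000 UMIs.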
